A study of Mus musculus with 13 samples.

Results

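The nuclear genes of respiratory complexes III, IV and V were followed across 13 RNA-seq libraries of mouse blastocysts. Members were taken by name from the deposited gene table: names starting with Uqcr, Uqcc, Cox4, Cox5, Cox6, Cox7, Cox8 or Atp5, plus Cyc1, Cycs and Atpif1. This gave 49 of the 31528 genes in the table, of which 12 belong to complex III, 18 to complex IV and 18 to complex V, with Cycs as the carrier between complexes III and IV. A further 10 names containing -ps were left out, and 1 member, Cox6c2, is typed in the table as a processed pseudogene. All 49 members passed the filter on low counts. The members were chosen by name and not by their values.

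The study compared embryos held in diapause, the reversible arrest of the blastocyst, with active blastocysts. All embryos had the B6D2F1 background, a mix of C57BL/6 and DBA2J. Targeted OVX embryos (2 libraries) carried guide RNAs against Nprl2 and Tsc2, 2 genes that restrain the kinase mTORC1, are labelled as Nprl2 and Tsc2 knockout, and came from ovariectomised mothers at embryonic day 5.5. The other groups at day 5.5 were wild type: reduced KSOM (3 libraries), cultured in the embryo medium KSOM with lowered arginine, leucine, isoleucine, lysine, glucose and lactate; depleted KSOM (2 libraries), cultured in KSOM lacking its protein and carbohydrate; starvation (2 libraries); and OVX (2 libraries), from ovariectomised mothers. The wild-type E4.5 group (2 libraries) came from mothers on a normal diet at embryonic day 4.5. Every diapause group was a day older than E4.5, so age and treatment cannot be told apart, and no library from complete KSOM was among those analysed. The labels do not say whether replicates came from separate mothers or cultures, so p-values measure the spread between these libraries, which may be technical.

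Complex III, ubiquinol-cytochrome c reductase, passes electrons from ubiquinol to the soluble carrier cytochrome c and pumps protons. Complex IV, cytochrome c oxidase, hands the electrons of cytochrome c to oxygen, and complex V, the ATP synthase, lets protons flow back through a membrane ring to make ATP in its F1 head. Each of the complexes is built from subunits of both genomes, so that nuclear genes must supply the parts that surround a core made in the mitochondrion. Blastocysts depend on respiration to fuel the sodium pumping that expands their cavity, and embryos in diapause are known for a lowered metabolic rate.

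Promoters of the members are described first. RefSeq promoter sequences of GRCm38.p6, covering 250 bases before and 50 after the start site, were used for 38 of the 49 members. Atp5a1 was left out of the motif counts, and the other members not used had no promoter entry. The core letters bound by NRF1, GCGCANGCG, a regulator of respiratory chain genes, were present on either strand in 12 of these 38 promoters (31.6%), against 6.47% of all 27025 promoters. The ETS family core CCGGAAG, read by factors such as GABP, was found in 10 of 38 (26.3%), against 9.12% of all promoters, and the YY1 core AAGATGGCG in 1 of 38 (2.63%), against 1.495%. At least 1 of the 3 was present in 18 of 38 member promoters (47.4%), against 15.3% of all. The NRF1 core can match both strands at sites 1 base apart, and each promoter was counted once. A match describes the letters and does not show that a factor binds. Of the members called below as higher in targeted OVX than in E4.5, Cycs, Cox6b1, Atp5o and Atp5l had at least 1 of the cores. Cox5a, Cox7a2 and Atp5pb had none of the 3. Whether the cores go with the levels was not tested. Shown are the 200 bases before the start site on the gene's own strand, with matches in capitals. Cycs (chr6:50566570-50566769, minus strand) holds an NRF1 core, Cox6a1 (chr5:115348959-115349158, minus strand) holds NRF1 cores and an ETS core, Cox6b1 (chr7:30626115-30626314, minus strand) an ETS core, Atp5k (chr5:108434400-108434599, minus strand) an NRF1 core on both strands, and Cox7a1 (chr7:30183971-30184170, plus strand), the muscle isoform, none of the 3 in this window.
Cycs: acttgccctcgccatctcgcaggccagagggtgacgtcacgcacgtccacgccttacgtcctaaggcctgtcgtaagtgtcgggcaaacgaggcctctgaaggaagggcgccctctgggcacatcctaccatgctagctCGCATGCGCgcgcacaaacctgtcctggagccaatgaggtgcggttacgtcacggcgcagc
Cox6a1: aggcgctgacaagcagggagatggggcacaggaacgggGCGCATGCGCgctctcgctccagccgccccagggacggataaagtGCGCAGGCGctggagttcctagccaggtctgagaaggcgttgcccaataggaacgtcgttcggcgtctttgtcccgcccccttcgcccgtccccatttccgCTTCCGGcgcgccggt
Cox6b1: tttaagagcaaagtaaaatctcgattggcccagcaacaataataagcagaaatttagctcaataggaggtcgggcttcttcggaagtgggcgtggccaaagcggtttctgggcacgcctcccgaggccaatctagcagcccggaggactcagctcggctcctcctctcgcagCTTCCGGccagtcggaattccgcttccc
Atp5k: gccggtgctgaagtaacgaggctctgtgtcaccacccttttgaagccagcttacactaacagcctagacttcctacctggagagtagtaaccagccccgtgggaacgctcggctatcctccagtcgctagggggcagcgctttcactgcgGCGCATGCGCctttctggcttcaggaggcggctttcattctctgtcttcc
Cox7a1: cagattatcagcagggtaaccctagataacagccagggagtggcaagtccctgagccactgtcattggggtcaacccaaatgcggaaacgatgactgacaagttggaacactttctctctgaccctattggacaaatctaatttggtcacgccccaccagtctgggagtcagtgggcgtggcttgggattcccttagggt

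Libraries held 40678386 to 72125687 counts, from cDNA made with a low-input SMART-Seq kit. Levels are given below as CPM, counts divided by library size, on a scale adjusted by the trimmed mean of M-values (TMM), and compare a gene between libraries but not 1 gene with another. All 9 blastocyst markers had counts in every library, but their levels differed between groups. Pou5f1, a factor of the inner cell mass, fell against E4.5 in targeted OVX (log2 fold change -1.81), reduced KSOM (-2.46), depleted KSOM (-2.26) and OVX (-3.11). Cdx2, of the trophectoderm, fell in targeted OVX (-2.24), reduced KSOM (-1.70) and OVX (-2.13), and Gata6, of the primitive endoderm, in OVX (-2.10), while Gata3 rose in depleted KSOM (1.33). The trophectoderm keratins did not follow Cdx2 throughout. Krt18 had 9775 to 18738 CPM in reduced KSOM and 5342 and 6488 CPM in OVX, against 2681 and 4029 CPM in E4.5. In targeted OVX it overlapped with E4.5 (2995 and 3943 CPM). Krt8 had 2444 to 5089 CPM in reduced KSOM, against 1694 and 2347 CPM in E4.5. It had 1310 and 3494 CPM in OVX and 1020 and 1410 CPM in targeted OVX. In the labelled knockouts Nprl2 had 13.9 and 28.6 CPM, against 38.0 and 36.5 CPM in OVX and 11.9 and 18.5 CPM in E4.5. Tsc2 had 14.7 and 8.26 CPM, against 23.3 and 14.1 CPM in OVX and 17.0 and 14.4 CPM in E4.5. Nprl2 was thus below OVX and not below E4.5, Tsc2 overlapped with both, and since guide cutting need not lower a transcript these levels are a weak check. Some libraries stood apart. All 14 skeletal muscle markers exceeded 1 CPM in the first OVX library and in all 3 reduced KSOM libraries, while 2 to 5 did so in each of the others. Their summed level was 1329 to 1630 CPM in reduced KSOM, 2179 and 147 CPM in OVX, and 124 to 647 CPM elsewhere, where it was mostly Mylpf. Acta1 had 115 to 159 CPM in reduced KSOM, 194 and 0.198 CPM in OVX, and was at 0 in targeted OVX, depleted KSOM, starvation and E4.5. The 9 neutrophil markers summed to 1519 to 1874 CPM in reduced KSOM, 883 and 121 CPM in OVX, and at most 40.5 CPM elsewhere. The erythroid markers summed to 42.9, 36.7 and 433 CPM in reduced KSOM, 337 and 6.58 CPM in depleted KSOM, 124.7 and 7.03 CPM in OVX, and at most 12.4 CPM elsewhere. Member counts and medians that rest on OVX are given without each OVX library, while in reduced KSOM all 3 libraries carried the markers, and their part in those results was not tested beyond a model term for such libraries.

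Together the 49 members were most abundant in targeted OVX, reduced KSOM and 1 of the 2 OVX libraries. Their summed level was 94251 and 72518 CPM in targeted OVX and 61955 to 85549 CPM in reduced KSOM. It was 21713 and 25394 CPM in depleted KSOM and 39177 and 23916 CPM in starvation. OVX had 113778 and 32130 CPM, and E4.5 had 28663 and 23149 CPM. The OVX libraries thus differed more from each other than most groups did, and the first of them, which carries the muscle markers, was the highest of all 13. As a share of all deposited counts the members took 7.20% and 6.32% in targeted OVX, 5.70% to 6.99% in reduced KSOM, 2.44% and 2.75% in depleted KSOM, 4.32% and 2.92% in starvation, 7.64% and 3.67% in OVX, and 3.85% and 3.27% in E4.5. Bulk libraries cannot tell fewer cells of a type from less RNA per cell. Each complex was higher in targeted OVX and reduced KSOM than in E4.5. Complex IV summed to 38428 and 28745 CPM in targeted OVX and 26447 to 39001 CPM in reduced KSOM, against 10191 and 7939 CPM in E4.5. Complex V summed to 33342 and 27280 CPM in targeted OVX and 23351 to 30049 CPM in reduced KSOM, against 11473 and 9669 CPM in E4.5. Complex III had the lowest sums, 14579 and 11458 CPM in targeted OVX and 10376 to 13757 CPM in reduced KSOM, against 6163 and 4875 CPM in E4.5.

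**Figure D1:**
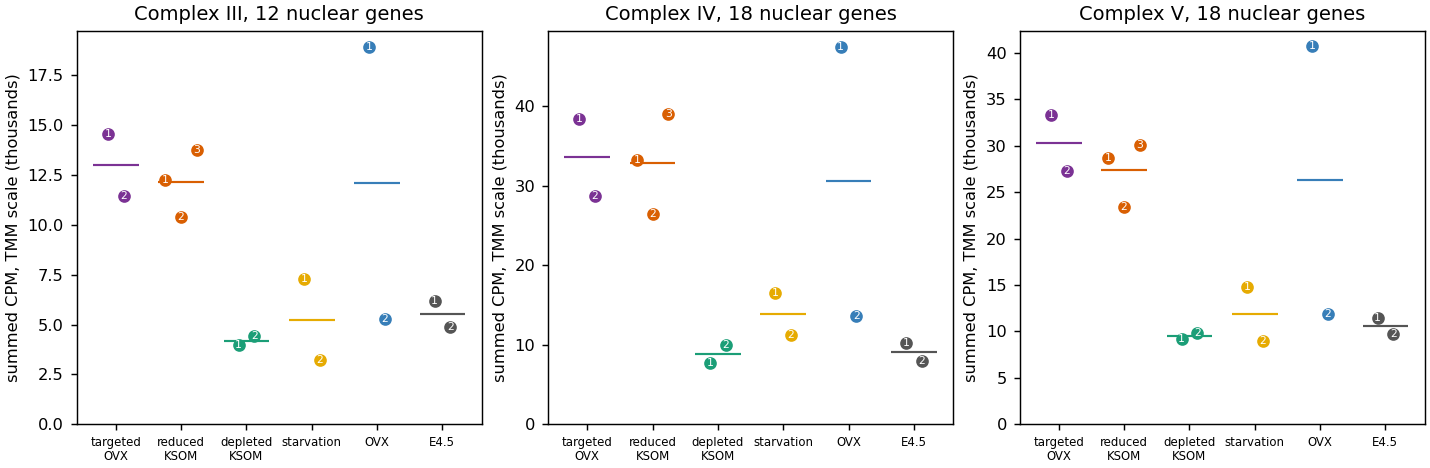
Summed TMM-scaled CPM of the nuclear members of complexes III, IV and V (one panel each) by group, with numbered points for libraries and lines for group means. Targeted OVX, reduced KSOM and OVX library 1 lie above the E4.5 libraries in each panel, for example complex IV at 38428 and 28745 CPM in targeted OVX against 10191 and 7939 CPM in E4.5.

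Targeted OVX embryos were compared with E4.5 embryos, which differed from them in guides, ovariectomy and age together. Of the 49 members 7 rose and none fell in edgeR's quasi-likelihood test at an adjusted p under 0.05, where 2.66% of the 21808 genes tested were called, 1.68% as higher and 0.986% as lower. At an unadjusted p under 0.05 there were 28, against 17.6% of all genes. The groups did not overlap for 34 members that were higher and 2 that were lower, against 19.3% and 29.6% of all genes. The median log2 fold change of the members was 1.53, beside -0.16 over all genes.

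Cytochrome c, the mobile electron carrier encoded by Cycs (ENSMUSG00000063694, chr6:50562563-50566538, minus strand, GRCm38), had 7903 and 5035 CPM in targeted OVX, against 836 and 666 CPM in E4.5. Both targeted libraries lay far above both E4.5 libraries, and the log2 fold change was 3.11 (SE 0.60, adjusted p = 0.0216 in edgeR). Cox5a, a general subunit of complex IV on the matrix side (ENSMUSG00000000088, chr9:57521274-57532426, plus strand), had 8725 and 6193 CPM in targeted OVX, against 1537 and 1139 CPM in E4.5, a log2 fold change of 2.48 (SE 0.55, edgeR adjusted p = 0.0335). Cox6b1, which faces the intermembrane space and helps join the 2 monomers of complex IV (ENSMUSG00000036751, chr7:30616861-30626151, minus strand), had 3882 and 2812 CPM in targeted OVX, against 827 and 785 CPM in E4.5. Its log2 fold change was 2.05 (SE 0.48, edgeR adjusted p = 0.0425), and the call was kept in 8 of 12 other settings. Cox7a2, the general form of a subunit whose other form is found in heart and muscle, had 2146 and 1575 CPM in targeted OVX and 592 and 428 CPM in E4.5, with a log2 fold change of 1.87 (edgeR adjusted p = 0.0496).

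The called members of complex V were parts of its stalk and membrane domain. Atp5pb, subunit b of the outer stalk that holds the F1 head still, had 1312 and 1195 CPM in targeted OVX, against 443 and 406 CPM in E4.5, a log2 fold change of 1.56 (SE 0.28, edgeR adjusted p = 0.0135). Its replicates lay close together in both groups. Atp5o, the subunit that links the stalk to the head and is named for the oligomycin sensitivity it confers, had 3788 and 3096 CPM in targeted OVX, against 736 and 675 CPM in E4.5, with a log2 fold change of 2.29 (edgeR adjusted p = 0.0368). Atp5l, subunit g of the membrane domain, had 2225 and 1655 CPM in targeted OVX and 447 and 303 CPM in E4.5, with a log2 fold change of 2.37 (edgeR adjusted p = 0.0453). Atp5pb and Atp5l have processed copies in the table, so reads may be shared with those. The lowest among members averaging 4 or more in log2 CPM was Uqcc3, an assembly factor of complex III, with 61.9 and 54.8 CPM in targeted OVX and 82.3 and 80.1 CPM in E4.5, which did not pass the test (log2 fold change -0.48, edgeR adjusted p = 0.479). Leaving out the first or second E4.5 library ended all 7 calls, with a median over members of 1.68 or 1.29 and with 0.753% or 0.333% of all genes called. Leaving out the first or second targeted library gave 3 called members each, where 3.18% or 0.959% of all genes were called. With an offset for the implied gene length 3 members and 2.52% of all genes were called.

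OVX embryos, the standard hormonal model of diapause, were compared with E4.5. Only Cox6b1 rose among the 49 members and none fell, where 2.04% of all genes were called, 1.56% as higher and 0.481% as lower. It had 5381 and 1630 CPM in OVX, against 827 and 785 CPM in E4.5, and the log2 fold change was 2.12 (SE 0.48, edgeR adjusted p = 0.0434). Both OVX libraries lay above both E4.5 libraries, but they differed widely from each other. The Cox6b1 call was kept in 5 of 12 other settings and was lost, among others, with median-of-ratios scaling. Cycs had 6651 and 1359 CPM in OVX, against 836 and 666 CPM in E4.5, and missed the threshold (log2 fold change 2.42, SE 0.59, edgeR adjusted p = 0.0545). Cox7a2 had 2843 and 934 CPM in OVX and 592 and 428 CPM in E4.5, and missed it as well (edgeR adjusted p = 0.0538). Without overlap between the groups, 24 members were higher and 1 was lower in OVX, against 21.3% and 24.9% of all genes. The median log2 fold change was 1.37, beside 0 over all genes. Cox7a1 was the lowest among members averaging 4 or more in log2 CPM, with 33.7 and 4.4 CPM in OVX and 46.9 and 19.4 CPM in E4.5 (log2 fold change -0.80, edgeR adjusted p = 0.734). The first OVX library decided the member median: without it the median was 0.22 with no member and 1.14% of all genes called, and without the second OVX library it was 1.97 with 27 members and 2.8% of all genes called.

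Targeted OVX was set against untargeted OVX. No OVX group with control guides was among the libraries, and the first OVX library carried the muscle markers. An effect of the guides therefore cannot be told apart from other differences between these groups. No member was called in this comparison, where 0.0367% of all genes were, and 3 had an unadjusted p under 0.05 in edgeR, against 10.9% of all genes. DESeq2 called 2 members and 5.5% of the genes it gave an adjusted p. The median log2 fold change was 0.14, beside -0.09 over all genes. Atp5pb had 1312 and 1195 CPM in targeted OVX, against 613 and 680 CPM in OVX (log2 fold change 0.96, SE 0.27, edgeR adjusted p = 0.236). The complex III assembly factors had opposite signs. Uqcc3 had 61.9 and 54.8 CPM in targeted OVX and 217 and 105 CPM in OVX (log2 fold change -1.46, SE 0.36, edgeR adjusted p = 0.175), while Uqcc2 had 337 and 335 CPM in targeted OVX and 231 and 88.8 CPM in OVX (log2 fold change 1.07, edgeR adjusted p = 0.444). For each of these 3 genes the groups did not overlap, as for 4 members that were higher and 2 that were lower in all, against 12.8% and 19.1% of genes. Without the first OVX library the member median was 1.09 with 2 members and 0.466% of all genes called, and without the second it was -0.34 with 1 member and 0.417% of all genes.

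Reduced KSOM was compared with E4.5 to follow diapause induced in culture by low nutrients. Cox6b1 rose, alone among the members, where 1.13% of all genes were called, 0.77% as higher and 0.362% as lower. It had 4403, 3647 and 5178 CPM in reduced KSOM, against 827 and 785 CPM in E4.5, and the log2 fold change was 2.45 (SE 0.47, edgeR adjusted p = 0.0298). All 3 cultured libraries lay far above both E4.5 libraries. Cox8a, a small membrane subunit of complex IV, had 3259, 2903 and 3713 CPM in reduced KSOM, against 1276 and 950 CPM in E4.5, and missed the threshold (log2 fold change 1.56, SE 0.35, edgeR adjusted p = 0.0523). Atpif1 codes for the inhibitor that stops the ATP synthase from running backwards. It had 4318, 3132 and 5278 CPM in reduced KSOM, against 1002 and 730 CPM in E4.5 (log2 fold change 2.29, SE 0.69, edgeR adjusted p = 0.134). Without overlap, 36 members were higher and 2 were lower in reduced KSOM, against 24% and 20.4% of all genes, and 31 members had an unadjusted p under 0.05, against 15.2% of all genes. The median log2 fold change was 1.41, beside 0.15 over all genes. The lowest among members averaging 4 or more in log2 CPM was Uqcrfs1, the Rieske iron-sulfur protein of complex III, with 126, 137 and 102 CPM in reduced KSOM and 193 and 210 CPM in E4.5 (log2 fold change -0.72, edgeR adjusted p = 0.302). Leaving out any 1 of the 5 libraries ended the Cox6b1 call, with 0.0421% to 0.187% of all genes called and the member median between 1.27 and 1.64. A model with a term marking libraries that bear muscle transcripts gave a median of -0.25 and called no member and 0.00917% of all genes. That term rests on the difference between the 2 OVX libraries.

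Depleted KSOM and starvation were set against the same E4.5 libraries. Against E4.5, depleted KSOM had 1 member that fell and none that rose, where 5.51% of all genes were called, 3.29% as higher and 2.21% as lower. The member was Cox7a1, the heart and muscle form of a complex IV subunit (ENSMUSG00000074218, chr7:30184144-30186078, plus strand), with 0.6 and 2.8 CPM in depleted KSOM, against 46.9 and 19.4 CPM in E4.5. These are 50 and 208 counts in depleted KSOM, against 3527 and 1341 in E4.5, and the log2 fold change was -4.28 (SE 1.08, edgeR adjusted p = 0.038). The call was lost without the first E4.5 library, without the first depleted library and with a replicate block, and adjusted p over the libraries left out ran from 0.018 to 0.17. The general form, Cox7a2, had 536 and 665 CPM in depleted KSOM and 592 and 428 CPM in E4.5. The median log2 fold change over the 49 was -0.16, beside -0.09 over all genes, and its sign turned with an offset for length and GC content (0.07). The groups did not overlap for 7 members that were higher and 18 that were lower, against 24.5% and 30.5% of all genes. The highest among members averaging 4 or more in log2 CPM was Atp5b, the catalytic beta subunit of F1, with 1204 and 1079 CPM in depleted KSOM and 668 and 635 CPM in E4.5 (log2 fold change 0.81, SE 0.35, edgeR adjusted p = 0.213).

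Starvation called no member against E4.5, where 2.21% of all genes were called. At an unadjusted p under 0.05 there were 6 members in edgeR, against 16.8% of all genes, and DESeq2 called 3, against 13.8% of the genes it gave an adjusted p. The median was 0.06, beside 0 over all genes, and its sign turned with library totals as scaling (-0.10). Uqcc2, an assembly factor needed for cytochrome b, had 34.3 and 17.0 CPM in starvation, against 136 and 73.2 CPM in E4.5 (log2 fold change -2.03, SE 0.49, edgeR adjusted p = 0.0527). The other complex III assembly factors were also lower without overlap: Uqcc1 had 14.6 and 16.9 CPM in starvation and 18.8 and 44.5 CPM in E4.5, and Uqcc3 had 67.1 and 56.3 CPM in starvation and 82.3 and 80.1 CPM in E4.5, neither past the test. Cox6b2, the testis form of Cox6b1, had 2.6 and 9.1 CPM in starvation and 33.5 and 10.3 CPM in E4.5 (log2 fold change -1.90, edgeR adjusted p = 0.20). Cox4i1, the subunit through which ATP acts on complex IV, was highest among members averaging 4 or more in log2 CPM, with 3248 and 1403 CPM in starvation and 1297 and 969 CPM in E4.5 (log2 fold change 1.04, edgeR adjusted p = 0.405). Atp5c1 of F1 (log2 fold change 0.81, edgeR adjusted p = 0.234) and Atp5pb (0.66, edgeR adjusted p = 0.235) also missed the threshold. Groups did not overlap for 13 members that were higher and 10 that were lower, against 19.8% and 24.7% of all genes.

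**Figure D2:**
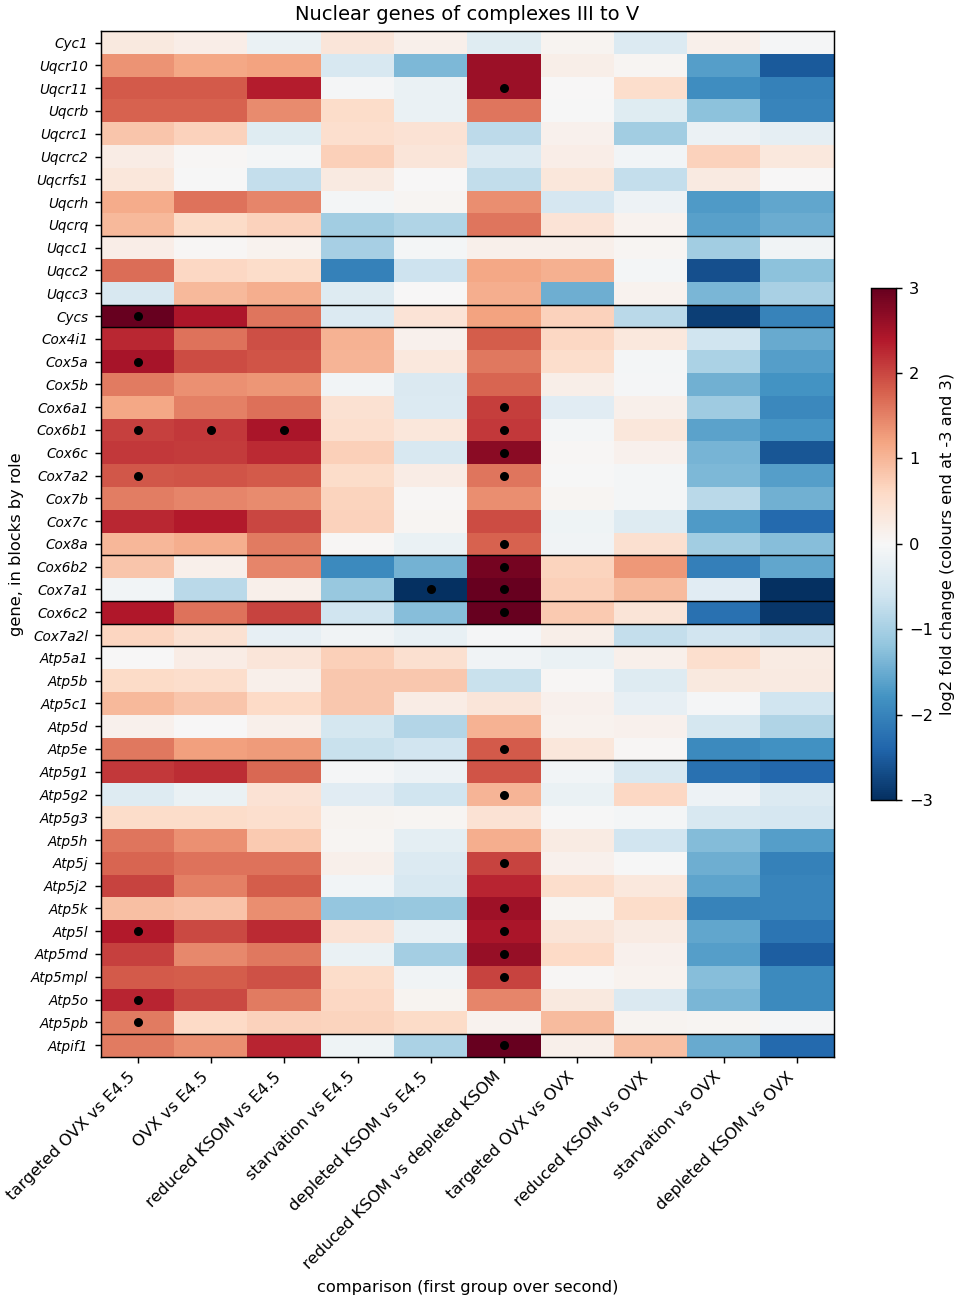
Log2 fold changes of the 45 members averaging 2 or more in log2 CPM (rows, by complex) in each comparison (columns), with black dots for an adjusted p under 0.05 in edgeR. Dots stand in 7 rows for targeted OVX against E4.5 and in 17 rows for reduced against depleted KSOM, and the 4 members not drawn are isoforms of limited tissue range.

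The culture media were set against each other, both at embryonic day 5.5, to compare low nutrients with none of the protein and carbohydrate. Here 17 of the 49 members rose in reduced KSOM and none fell, where 5.79% of all genes were called, 2.99% as higher and 2.8% as lower. The called members were 1 of complex III, 8 of complex IV and 8 of complex V. Their log2 fold changes ran from 1.01 for Atp5g2 to 4.42 for Cox7a1. The median over the 49 was 1.60, beside 0.29 over all genes, and 36 members had an unadjusted p under 0.05, against 22.7% of all genes. Values were separate for 39 members that were higher and 5 that were lower in reduced KSOM, against 27.5% and 20.8% of all genes.

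In complex III the called gene was Uqcr11, a small subunit of the membrane arm, with 3181, 2525 and 3830 CPM in reduced KSOM, against 464 and 610 CPM in depleted KSOM (log2 fold change 2.56, SE 0.63, edgeR adjusted p = 0.0359). Its neighbour in the complex, Uqcr10, had 4259, 3575 and 4980 CPM in reduced KSOM and 645 and 804 CPM in depleted KSOM and missed the threshold (edgeR adjusted p = 0.0533). The lowest among members averaging 4 or more in log2 CPM was Uqcrc1, a large core subunit of complex III, with 473, 493 and 398 CPM in reduced KSOM and 818 and 754 CPM in depleted KSOM (log2 fold change -0.79, SE 0.41, edgeR adjusted p = 0.268).

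In complex IV the general subunit Cox6c had 3726, 2929 and 4433 CPM in reduced KSOM, against 492 and 638 CPM in depleted KSOM (log2 fold change 2.71, SE 0.57, edgeR adjusted p = 0.0228). Cox8a had 3259, 2903 and 3713 CPM in reduced KSOM, against 914 and 1026 CPM in depleted KSOM (log2 fold change 1.76, SE 0.35, edgeR adjusted p = 0.0189). Cox6a1, a subunit at the face where monomers meet, had 4947, 3713 and 5973 CPM in reduced KSOM, against 1079 and 1235 CPM in depleted KSOM (log2 fold change 2.08, edgeR adjusted p = 0.0274). Cox6b1 (2.11) and Cox7a2 (1.60) rose as well. So did the pseudogene-typed Cox6c2 (3.29), with 165, 128 and 208 CPM in reduced KSOM and 14.1 and 19.9 CPM in depleted KSOM, whose reads may belong to Cox6c. Isoforms named for other tissues were also called: Cox7a1 had 34.8, 32.8 and 42.1 CPM in reduced KSOM, against 0.6 and 2.8 CPM in depleted KSOM (log2 fold change 4.42, SE 1.06, edgeR adjusted p = 0.0332), and Cox6b2 had 59.4, 54.0 and 67.9 CPM in reduced KSOM, against 7.9 and 8.6 CPM in depleted KSOM (2.87, edgeR adjusted p = 0.0378). In E4.5 Cox7a1 had 46.9 and 19.4 CPM. There 10 and 9 of the 14 skeletal muscle markers were at 0, while Mylpf had 227 and 114 CPM and Ckm 9.3 and 3.2 CPM. Whether Cox7a1 follows muscle transcripts was not tested.

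In complex V the inhibitor Atpif1 rose most, with 4318, 3132 and 5278 CPM in reduced KSOM, against 397 and 498 CPM in depleted KSOM (log2 fold change 3.25, SE 0.73, edgeR adjusted p = 0.0272). Small subunits of the membrane domain and stalk rose with it. Atp5md, which helps synthase dimers persist, had 1343, 1119 and 1534 CPM in reduced KSOM, against 212 and 224 CPM in depleted KSOM (log2 fold change 2.61, SE 0.53, edgeR adjusted p = 0.0201). Atp5k, subunit e, had 2417, 1999 and 2703 CPM in reduced KSOM, against 386 and 432 CPM in depleted KSOM (log2 fold change 2.54, edgeR adjusted p = 0.0385). Atp5l (2.45), Atp5j (2.02), Atp5mpl (2.02) and Atp5e (1.85) also rose, the last of these being the small epsilon subunit of the F1 central stalk. Atp5g2, 1 of 3 genes for the same c subunit of the rotating ring, had the smallest called change, with 257, 255 and 264 CPM in reduced KSOM and 130 and 127 CPM in depleted KSOM (log2 fold change 1.01, SE 0.25, edgeR adjusted p = 0.0363). Its call was kept in 4 of 12 other settings, and with an offset for GENCODE length and GC content its sign turned (-0.26).

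These calls are close to the limit of the design. Omitting any single library of the 5 ended all 17, at adjusted p-values of 0.051 to 0.28, with a member median of 1.45 to 1.78 and 0.566% to 0.94% of all genes called. With an offset for length 6 members and 3.91% of all genes were called. Once muscle-bearing libraries had a term of their own, edgeR called no member and 0% of all genes, with 1 member at an unadjusted p under 0.05, and the median was -0.15.

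**Figure D3:**
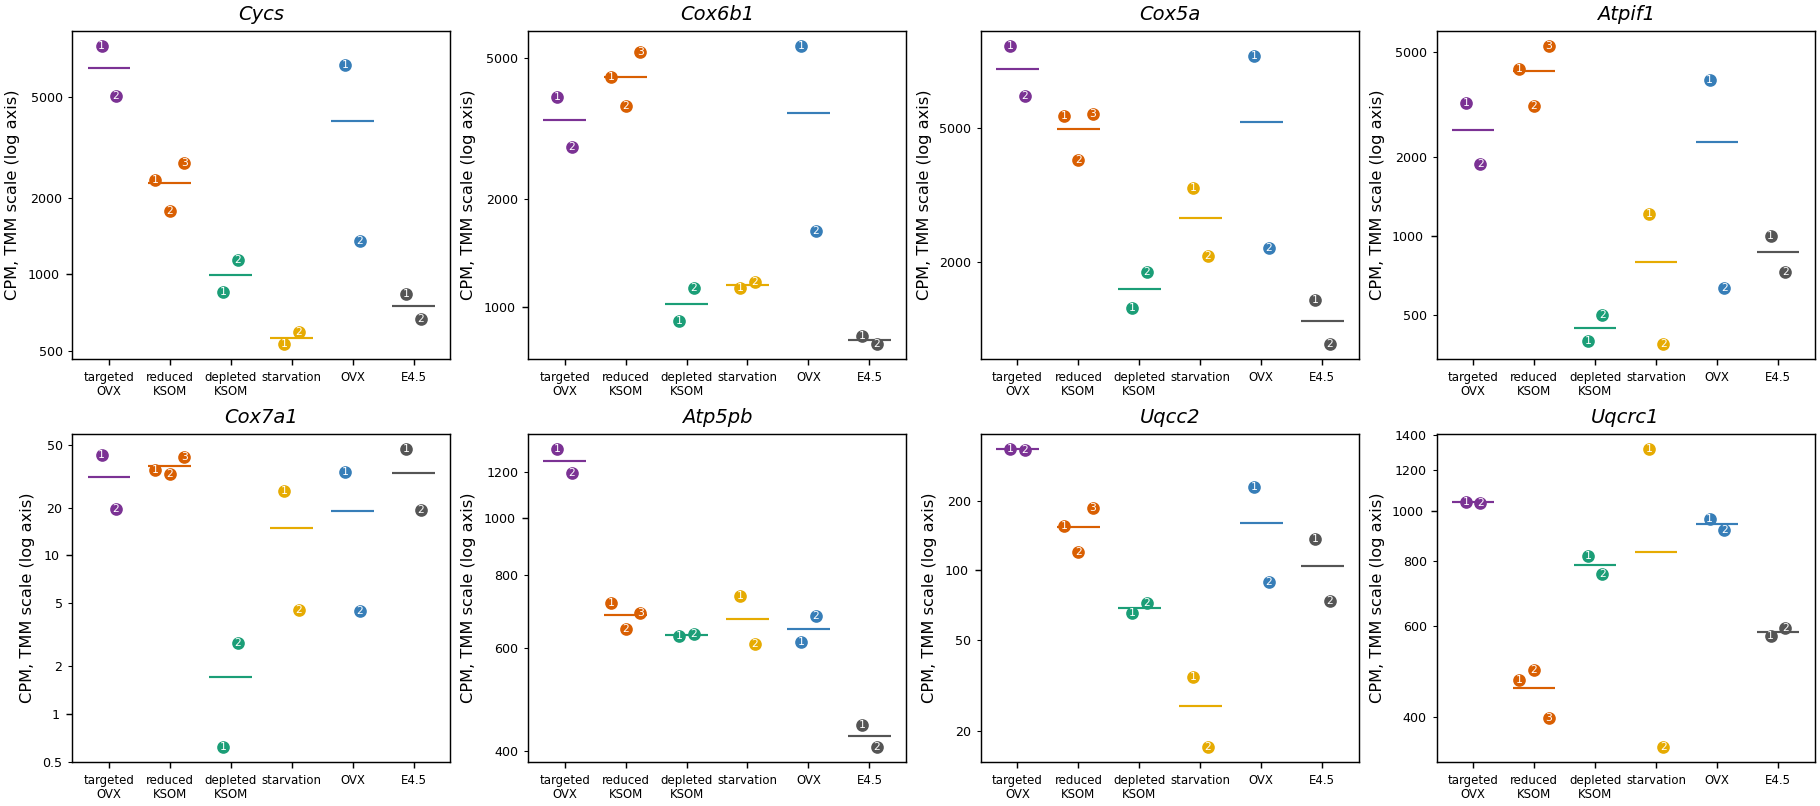
TMM-scaled CPM (log axis) by library for Cycs, Cox6b1, Cox5a, Atpif1, Cox7a1, Atp5pb, Uqcc2 and Uqcrc1, with points numbered by replicate and lines for group means. Atpif1 lies at 3132 to 5278 CPM in reduced KSOM against 397 and 498 CPM in depleted KSOM, whereas Uqcrc1 shows the opposite order of these groups.

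Against OVX, the other diapause groups had no called member: the share of all genes called was 0.225% for starvation, 0.679% for depleted KSOM and 0.202% for reduced KSOM. At an unadjusted p under 0.05 edgeR had 30 members for starvation, against 15% of all genes, 33 for depleted KSOM, against 15.9%, and 4 for reduced KSOM, against 9.48%. DESeq2 called 16 members for starvation, 27 for depleted KSOM and 0 for reduced KSOM, against 9.89%, 12.1% and 4.33% of the genes it gave an adjusted p. Values were separate for 37 members that were lower in depleted KSOM than in OVX and 2 that were higher, against 22.2% and 19.8% of all genes. The median log2 fold change was -1.65, beside -0.03 over all genes. Atp5md had 212 and 224 CPM in depleted KSOM, against 1957 and 462 CPM in OVX (log2 fold change -2.47, SE 0.55, edgeR adjusted p = 0.0643). Cox6c had 492 and 638 CPM in depleted KSOM, against 5695 and 1049 CPM in OVX (log2 fold change -2.58, SE 0.59, edgeR adjusted p = 0.0686).

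Among members averaging 4 or more in log2 CPM, Cox7a1 was lowest, with 0.6 and 2.8 CPM in depleted KSOM and 33.7 and 4.4 CPM in OVX (log2 fold change -3.47, edgeR adjusted p = 0.126), and Uqcrc2 highest, with 270 and 221 CPM in depleted KSOM and 199 and 194 CPM in OVX (0.32, edgeR adjusted p = 0.70).

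In starvation against OVX the groups did not overlap for 15 members that were lower and 1 that was higher, against 17.7% and 16.5% of all genes, and the median was -1.38, beside 0. Cycs had 532 and 594 CPM in starvation, against 6651 and 1359 CPM in OVX (log2 fold change -2.83, SE 0.60, edgeR adjusted p = 0.0674). Uqcc2 had 34.3 and 17.0 CPM in starvation, against 231 and 88.8 CPM in OVX (log2 fold change -2.64, SE 0.50, edgeR adjusted p = 0.0555). Uqcrc2, the partner core subunit of Uqcrc1, was the farthest above the median among members averaging 4 or more in log2 CPM, with 432 and 200 CPM in starvation and 199 and 194 CPM in OVX (log2 fold change 0.69, edgeR adjusted p = 0.372).

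Reduced KSOM and OVX, which both held muscle markers in at least 1 library, had a member median of 0.05, beside 0.08 over all genes. The groups did not overlap for 3 members that were higher and 7 that were lower in reduced KSOM, against 16.8% and 13.8% of all genes. Uqcrc1 had 473, 493 and 398 CPM in reduced KSOM, against 964 and 918 CPM in OVX (log2 fold change -1.05, SE 0.41, edgeR adjusted p = 0.433). Cox6b2 had 59.4, 54.0 and 67.9 CPM in reduced KSOM, against 21.8 and 26.9 CPM in OVX (log2 fold change 1.31, SE 0.66, edgeR adjusted p = 0.555). Without the first OVX library the median was -0.45 for depleted KSOM, with no member and 0.39% of all genes called, and -0.09 for starvation, with no member and 0.125% of all genes called. For reduced KSOM it was 1.15, with 4 members and 0.92% of all genes called. Without the second OVX library 31 members fell in depleted KSOM, where 3.78% of all genes were called, and 27 in starvation, where 2.67% were, with medians of -2.29 and -1.91. For reduced KSOM the median was then -0.50, with no member and 0.158% of all genes called.

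Within the complexes the roles differed in level and in spread. Levels per length were compared as deposited FPKM, which divides fragments by gene length and library size, averaged over the 6 group means. The highest in complex III were Uqcr10 (3951 FPKM), Uqcr11 (1946 FPKM) and Uqcrb (1069 FPKM), all small subunits. Cyc1, the heme-bearing cytochrome c1 that hands electrons to cytochrome c, averaged 180 FPKM, and Cycs 576 FPKM. In complex IV the highest were Cox6a1 (3503 FPKM), Cox6b1 (2728 FPKM) and Cox8a (2560 FPKM), and in complex V Atp5k (1650 FPKM), Atpif1 (1038 FPKM) and Atp5o (746 FPKM). The lengths implied by the deposited values were longer than those in GENCODE for all 49 members, by unequal amounts, for example 7093 bases for Atp5l against 544 in GENCODE. Per kilobase of GENCODE length the highest in complex III were the same 3 genes. In complex IV they were then Cox5a (6025 CPM per kilobase), Cox6a1 (5126) and Cox6c (4356), and in complex V Atp5g1 (4184), Atpif1 (3451) and Atp5k (3324), so the order within complexes IV and V depends on the length used.

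Uqcr10 had 6351 and 5413 FPKM in targeted OVX, 5522, 5120 and 6351 FPKM in reduced KSOM, 1135 and 1361 FPKM in depleted KSOM, 3505 and 1111 FPKM in starvation, 7543 and 1933 FPKM in OVX, and 4474 and 3262 FPKM in E4.5. Its depleted KSOM libraries lay below both E4.5 libraries. Cyc1, given here in CPM, had 404 and 516 CPM in targeted OVX, 227 to 390 CPM in reduced KSOM, 442 and 393 CPM in depleted KSOM, 705 and 248 CPM in starvation, 408 and 454 CPM in OVX, and 406 and 340 CPM in E4.5. On this scale reduced KSOM lay below targeted OVX, depleted KSOM and OVX without overlap, though close to depleted KSOM (390 and 393 CPM). In FPKM reduced KSOM (137, 136 and 78.5) overlapped with targeted OVX (130 and 190) and OVX (117 and 217), and not with depleted KSOM (211 and 180). The starvation libraries lay far apart from each other.

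Complex IV holds most of the genes with paired isoforms. The limited-tissue forms Cox4i2, Cox6a2, Cox7b2 and Cox8b had at most 194 counts in any library, while the general forms Cox4i1, Cox6a1 and Cox8a had at least 899, 1079 and 914 CPM. Of these, Cox6a2 and Cox8b are heart and muscle forms. Cox8b had 46 counts in the first OVX library, 16, 32 and 36 in reduced KSOM, and 0 in all other libraries. Cox6a2 had 66 counts in the first OVX library and 184, 194 and 102 in reduced KSOM. It had 185 in the second targeted OVX library, 134 in the second depleted KSOM library and 0 elsewhere. Whether these counts came with the muscle transcripts was not tested. Cox7a2l, which helps join complexes III and IV into supercomplexes, had 204 and 131 CPM in targeted OVX, 65.6, 101 and 101 CPM in reduced KSOM, 54.9 and 127 CPM in depleted KSOM, 133 and 63.7 CPM in starvation, 153 and 142 CPM in OVX, and 89.2 and 124 CPM in E4.5. On this scale targeted OVX and OVX lay above reduced KSOM, depleted KSOM and E4.5 without overlap. The nearest values were 131 CPM in targeted OVX and 127 CPM in depleted KSOM. In FPKM targeted OVX (95.63 and 70.03) and OVX (63.7 and 98.63) overlapped with E4.5 (71.99 and 106.32) and with depleted KSOM (38.12 and 85.03). Both still lay above reduced KSOM (33.58, 57.2 and 50.97 FPKM).

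The 10 general subunits of complex IV had a median log2 fold change against E4.5 of 1.96 in targeted OVX, with 3 called, of 1.86 in reduced KSOM, of 0.04 in depleted KSOM, of 0.61 in starvation and of 1.76 in OVX. In complex V the 12 outer stalk and membrane genes had medians of 1.80 in targeted OVX, with 3 called, 1.57 in reduced KSOM, -0.25 in depleted KSOM, 0.08 in starvation and 1.47 in OVX. The 5 F1 genes, the epsilon subunit of the central stalk among them, had medians of 0.57 in targeted OVX, 0.37 in reduced KSOM and 0.53 in OVX. These were below those of the outer stalk and membrane genes there. In depleted KSOM (0.23) and starvation (0.72) the F1 medians were above them. None of the 5 was called against E4.5. The 9 core genes of complex III had medians of 0.98 in targeted OVX and 0.69 in reduced KSOM and in OVX. Without the first OVX library the OVX medians were 0.65 for the complex IV subunits, 0.24 for the outer stalk and membrane genes, -0.08 for the F1 genes and 0.03 for the complex III core. Without the second they were 2.41, 2.18, 0.58 and 1.25.

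The 3 genes for the c subunit differed in range. Atp5g1 had 3954 and 4691 CPM in targeted OVX and 3018 to 3372 CPM in reduced KSOM, against 1129 and 844 CPM in E4.5. Atp5g3 had 1186 and 799 CPM in targeted OVX and 871 to 1093 CPM in reduced KSOM, against 762 and 598 CPM in E4.5. Atp5g2 had 167 and 130 CPM in targeted OVX and 255 to 264 CPM in reduced KSOM, against 191 and 195 CPM in E4.5, and was thus lower in targeted OVX and higher in reduced KSOM with no overlap. None of the 3 was called against E4.5.

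Fold changes of the members differed with the length of the coding sequence. The division at a coding length of 600 bases was chosen after the values were seen, so the figures that follow are a description without a test, over members averaging 6 or more in log2 CPM. In targeted OVX against E4.5 the 9 longer members had a median log2 fold change of 0.57 and the 32 shorter members 1.65. Over all genes at that level the medians were 0.29 for longer and 0.97 for shorter genes. In reduced KSOM against E4.5 the medians were 0.15 for longer and 1.57 for shorter members, beside 0.13 and 0.59 over all genes. In OVX against E4.5 they were 0.53 and 1.49, beside 0.36 and 0.72, but without the first OVX library the order turned, with 0.48 for longer and 0.24 for shorter members, and without the second they were 0.53 and 2.16. Starvation and depleted KSOM ran the other way against E4.5, with 0.66 and 0.35 for the longer members and -0.03 and -0.22 for the shorter ones. In reduced against depleted KSOM the longer members had a median of -0.37 and the shorter ones 1.79, beside -0.20 and 0.84 over all genes.

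Summed over members, the shorter genes had 84540 and 63411 CPM in targeted OVX, 55865 to 79755 CPM in reduced KSOM, 15706 and 19725 CPM in depleted KSOM, 30277 and 19027 CPM in starvation, 103816 and 26184 CPM in OVX, and 24109 and 18865 CPM in E4.5. The longer genes had 9711 and 9107 CPM in targeted OVX, 5794 to 7098 CPM in reduced KSOM, 6008 and 5668 CPM in depleted KSOM, 8900 and 4889 CPM in starvation, 9962 and 5946 CPM in OVX, and 4554 and 4284 CPM in E4.5. The differences between groups in the sums of the 49 thus lay mostly in the shorter genes. In each comparison named here the medians of longer and shorter genes over the whole table had the same order as those of the members. With an offset for the implied gene length the member median in targeted OVX against E4.5 was 0.99, and with one for GENCODE length and GC content it was 0.69.

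**Figure D4:**
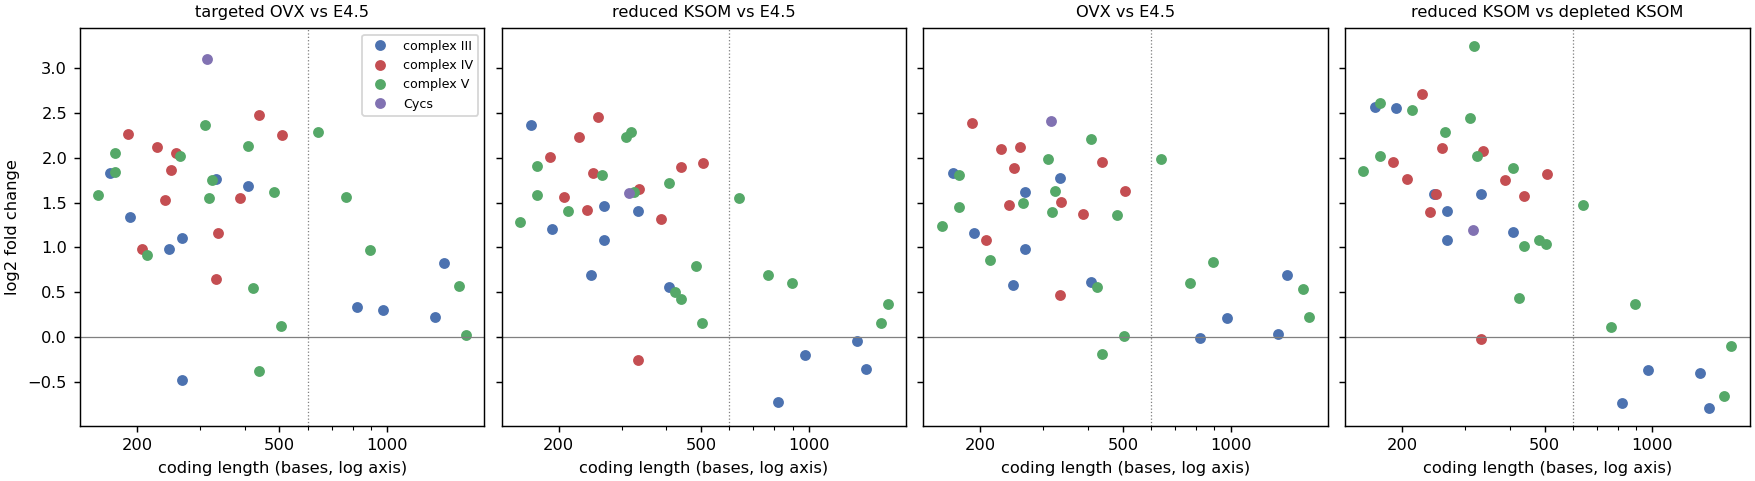
Log2 fold change of each member averaging 6 or more in log2 CPM against its coding length in bases (log axis), in targeted OVX, reduced KSOM and OVX against E4.5 and in reduced against depleted KSOM, with a dotted line at 600 bases. Shorter members lie higher, with medians of 1.65 and 0.57 for shorter and longer members in targeted OVX against E4.5.

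The mitochondrial genome encodes 6 further subunits of these complexes, mt-Cytb of complex III, mt-Co1, mt-Co2 and mt-Co3 of complex IV, and mt-Atp6 and mt-Atp8 of complex V, and their levels had another order of groups. Together they had 19193 and 22849 CPM in targeted OVX, 36149, 49110 and 57347 CPM in reduced KSOM, 76374 and 82136 CPM in depleted KSOM, 25449 and 38359 CPM in starvation, 25568 and 16415 CPM in OVX, and 20901 and 18974 CPM in E4.5. Depleted KSOM, low in nuclear members, was thus the highest in the mitochondrial ones. All 6 rose in depleted KSOM against E4.5, with log2 fold changes of 1.31 to 2.76, among them mt-Cytb (2.36, edgeR adjusted p = 0.00781). In reduced KSOM mt-Atp6 (2.49) and mt-Atp8 (2.12) rose against E4.5, and none of the 6 was called in targeted OVX, starvation or OVX against E4.5. In reduced against depleted KSOM mt-Cytb fell, with a log2 fold change of -1.43. The ratio of nuclear to mitochondrial summed CPM was 4.91 and 3.17 in targeted OVX, 2.11, 1.26 and 1.49 in reduced KSOM, 0.284 and 0.309 in depleted KSOM, 1.54 and 0.623 in starvation, 4.45 and 1.96 in OVX, and 1.37 and 1.22 in E4.5. The depleted KSOM libraries lay below all others in this ratio.

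**Figure D5:**
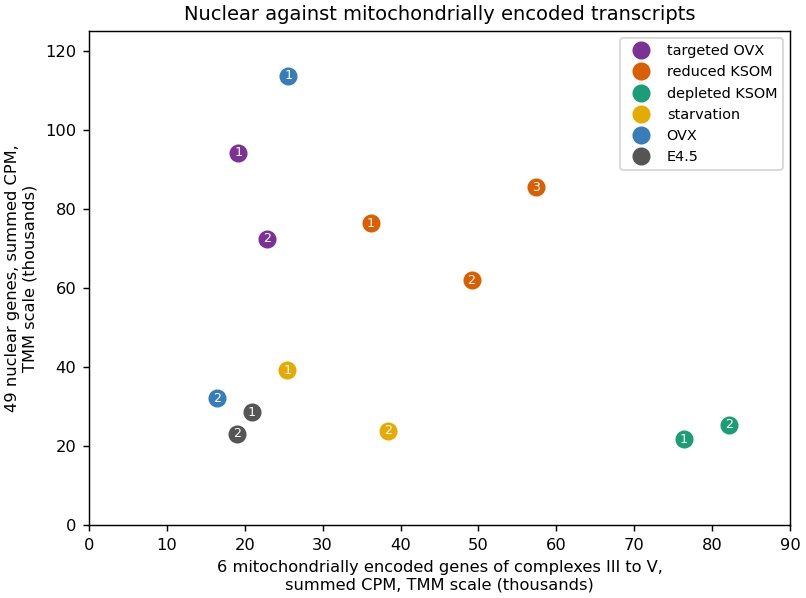
Summed CPM of the 49 nuclear members (vertical axis, in units of 1000 CPM) against that of the 6 mitochondrially encoded subunits of complexes III to V (horizontal axis, same units), 1 point per library coloured by group. The depleted KSOM libraries stand at the lower right, with ratios of 0.284 and 0.309, and the targeted OVX libraries at the upper left, with ratios of 4.91 and 3.17.

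Other nuclear genes of oxidative phosphorylation were described from fixed lists. Of 36 complex I genes 6 rose in targeted OVX, 1 in reduced KSOM and 2 in OVX against E4.5, with medians of 1.43, 1.24 and 1.24, and none was called in depleted KSOM (median -0.08) or starvation (0.30). Without the first OVX library the OVX median for complex I was 0.42 with none called, and without the second it was 1.81 with 22 called. In reduced against depleted KSOM 9 complex I genes rose and 1 fell, with a median of 1.33. Of the 4 complex II genes, Sdhd, a membrane anchor, rose in depleted KSOM (2.05) and in starvation (1.77) against E4.5. Among 26 assembly factors of complexes III to V outside the members the medians were 0.13 in targeted OVX, 0.02 in reduced KSOM, -0.12 in depleted KSOM, -0.15 in starvation and 0.15 in OVX against E4.5. In that list Lyrm7, a chaperone of the Rieske protein, fell in targeted OVX (-1.92), while in depleted KSOM Atpaf2, an F1 assembly factor, rose (1.36) and Coa7, a complex IV assembly factor, fell (-1.75). In reduced against depleted KSOM 4 assembly factors rose: Lyrm7, Cox17, Coa7 and Pet100, of which Cox17 carries copper to complex IV. Of 7 carriers and channels for adenine nucleotides and phosphate, Vdac3, a pore of the outer membrane, rose against E4.5 in targeted OVX (1.83), reduced KSOM (1.59), depleted KSOM (2.25), starvation (1.72) and OVX (2.33), comparisons that share the E4.5 libraries. Vdac1 fell in targeted OVX against E4.5 (-2.02) and in reduced against depleted KSOM (-1.37). Of 10 regulators of mitochondrial biogenesis only Gabpb1, a subunit of GABP, was called, higher in targeted OVX than in E4.5 (2.03).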

How the data were processed

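RNA was made into cDNA with the SMART-Seq v4 kit, per the labels' protocols, and HISAT2 2.0.4, StringTie 1.3.4d, cutadapt 1.9 and GRCm38 are named in the submitters' processing notes; the counting tool, its use of strand and the annotation are not given in the sources used here. The authors deposited FPKM values and estimated counts per gene, which are whole numbers, for all 13 libraries. Libraries held 40678386 to 72125687 counts, and precision rests on the 2 or 3 libraries per group.

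The counts of all 31528 genes were filtered with filterByExpr, scaled by TMM (factors 0.671 to 1.41) and fitted once over the 6 groups with edgeR 4.0.16 in R 4.3.3 (quasi-likelihood F test, 7 residual degrees of freedom, common biological coefficient of variation 0.896). P-values were adjusted by Benjamini-Hochberg over the 21808 genes tested, per comparison, with a threshold of 0.05. Every adjusted p comes from this edgeR fit unless another tool is named. DESeq2 1.42.0 and limma 3.58.1 on log2(FPKM + 1) or log2(FPKM + 0.1) were alternatives. The script was run on simulated data whose planted changes were larger than nearly all those called here, and whose spread was smaller. That run does not show how well changes of the size called here are found. Lengths come from GENCODE vM21 and promoters from RefSeq.

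Members, lists and tests were chosen with earlier results of these data known. The text names every called member, otherwise up to 4 with the smallest p, the 3 members per complex with the highest FPKM, isoforms, assembly factors and the members farthest from the median. The labels name the OVX libraries in differing styles, and the second starvation library carries the number 3.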

Additional observations from a re-analysis of the deposited data

How the results depend on the processing

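Of 612 values for single members under alternatives, 604 kept their direction. Of 163 counts of called members 71 stayed within 1.5 times the main count, and 124 of 163 medians moved by less than the SD between replicates (0.50 on the log2 scale). The reversed values were those of reduced against depleted KSOM under the term for muscle-bearing libraries for Uqcr11 (-0.03), Cox6c2 (-0.14), Cox7a2 (-0.01), Atp5e (-0.31), Atp5j (-0.10), Atp5k (-0.15) and Atp5mpl (-0.06), and under the GENCODE length and GC offset for Atp5g2 (-0.26). The cause was not tested.

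Counts of called members are given in the order targeted OVX, reduced KSOM, depleted KSOM, starvation and OVX against E4.5, where a group not named stayed within 1.5 times. Where no share of all genes stands beside a count in this section, the count alone does not show a result about the members. With DESeq2 they were 25, 23, 2, 3 and 17, against 15.4%, 11%, 19.7%, 13.8% and 12.4% of the genes it gave an adjusted p. With limma they were 12, 11, 3, 2 and 3 at a pseudocount of 1 and 11, 9, 3, 1 and 2 at 0.1. With no filter on low counts they were 26, 27, 4, 2 and 25. With a mean CPM of at least 5 they were 4 for reduced KSOM, 1 for starvation and 5 for OVX. With only the groups compared they were 0 for targeted OVX, 32 for reduced KSOM, 3 for depleted KSOM and 0 for OVX. The length offset gave 3 for targeted OVX, 1 for starvation and 0 for OVX, against 2.52%, 2.22% and 1.85% of all genes. The GENCODE length and GC offset, chosen after seeing the data, gave 2 for targeted OVX and 0 for OVX. Library totals gave 1 for starvation and 0 for OVX. The muscle term gave 23, 0, 2, 1 and 0, against 4.42%, 0.00917%, 6.9%, 3.11% and 1.04% of all genes.

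For reduced against depleted KSOM the counts were 32 with DESeq2, 28 with limma at either pseudocount and 31 with no filter. They were 38 with only the groups compared, 6 with either offset and 0 with the muscle term. The shares of genes called were 20.6% with DESeq2, 3.91% with the length offset and 0% with the muscle term. Against OVX, DESeq2 gave 27 for depleted KSOM, 16 for starvation and 2 for targeted OVX, against 12.1%, 9.89% and 5.5% of genes. With no filter they were 30, 25 and 1. Limma at 1 gave 3 for depleted KSOM and 2 for starvation, limma at 0.1 gave 2 and 1, and a mean CPM of at least 5 gave 2 and 2. The muscle term gave 1 for targeted OVX, against 0.248% of all genes.

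With a replicate block the counts were 5 for targeted OVX, 0 for reduced KSOM, 1 for starvation and 0 for OVX against E4.5, and 6 for reduced against depleted KSOM. Correlations of the 30 same-numbered pairs ran from -0.08 to 0.19, with 4 over 0.1. In groups of 2 libraries the deviations from the group mean mirror each other, so these pairs are not independent. They cannot tell whether libraries of the same number share a source.

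Leaving out 1 library at a time gave 0 to 3 calls for targeted OVX, 0 for reduced KSOM, 0 to 1 for depleted KSOM, 0 to 2 for starvation and 0 to 27 for OVX against E4.5, 0 for reduced against depleted KSOM, and against OVX 0 to 2 for targeted OVX, 0 to 4 for reduced KSOM, 0 to 31 for depleted KSOM and 0 to 27 for starvation. The medians ran from 0.22 to 1.97 for OVX against E4.5, and against OVX from -0.34 to 1.09 for targeted OVX, -0.50 to 1.15 for reduced KSOM, -2.29 to -0.45 for depleted KSOM and -1.91 to -0.09 for starvation.

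Library totals moved the median of all genes against E4.5 to -0.92 for targeted OVX, -0.50 for reduced KSOM, -0.41 for depleted KSOM, -0.17 for starvation and -0.53 for OVX, with member medians of 0.76, 0.72, -0.48, -0.10 and 0.52, and of -0.78 for starvation against OVX, beside 0.26 over all genes. With limma at either pseudocount the member medians were 0.78 for targeted OVX, 0.76 for reduced KSOM and 0.42 for OVX against E4.5, and -0.71 for starvation against OVX, and for depleted KSOM against OVX -1.09 at 1 and -1.10 at 0.1. The length offset gave 0.99 for targeted OVX against E4.5, and -0.96 for depleted KSOM and -0.71 for starvation against OVX. The GENCODE length and GC offset gave 0.69 for targeted OVX, 0.75 for reduced KSOM and 0.68 for OVX against E4.5, 0.73 for reduced against depleted KSOM, and -0.60 for depleted KSOM and -0.49 for starvation against OVX. The muscle term gave -0.25 for reduced KSOM and 0.21 for OVX against E4.5, -0.15 for reduced against depleted KSOM, and against OVX 1.10 for targeted OVX, -0.50 for reduced KSOM, -0.45 for depleted KSOM and -0.09 for starvation.

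No group had more than 3 libraries, and no library fewer than 40678386 counts.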
